A study of Mus musculus with 10 samples.

Results

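RBPJ peaks at the start sites of noncoding RNA genes, away from any protein-coding start site, were described in mouse brain pericytes. A peak of the RBPJ list belonged to this group when its centre lay more than 5 kb from the transcription start site (TSS) of every protein-coding transcript and within 1 kb of a TSS of a gene of any other class (GENCODE M21, GRCm38). Of 11094 peaks, 370 met this rule, or 3.34% (95% exact binomial interval 3.01 to 3.69%). They made up 7.80% (7.06 to 8.60%) of the 4741 peaks that lay more than 5 kb from coding start sites. The peaks came from chromatin immunoprecipitation and sequencing (ChIP-seq) with an antibody against RBPJ in untreated mouse RD1 cells, which the labels call brain pericytes, grown in pericyte medium on collagen I. The series holds 10 samples in 5 groups of 2 (RBPJ, H3K4me1, H3K4me3, histone H3 and input), and only the peak list of both RBPJ samples was used, the other 8 samples being not analysed here. The methods of the study describe cultured primary pericytes from the brains of Rbpj lox/lox mice for this experiment, and the labels do not say whether the replicates were separate cultures. Both files held the same 1 list, a consensus over the replicates which places each peak on a chromosome without a height or score, so that strength of binding, depth and spread between replicates could not be given. A list of positions also holds no expression values with which to check the identity of the cells. All intervals cover counting error only.

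RBPJ is the DNA-binding factor of the Notch pathway. It recruits corepressors in the absence of signal and forms an activating complex with the cleaved Notch receptor and Mastermind proteins when the pathway is on. Noncoding RNA genes include long noncoding RNAs (lncRNAs), some of which carry microRNAs or small nucleolar RNAs in their introns, as well as small structured RNAs and pseudogenes, the inactive copies of coding genes. Many lncRNAs have promoters of their own, and others start inside enhancers.

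The sequence most closely tied to RBPJ is the core TGGGAA, searched here on both strands. The central 200 bp held it in 100 of the 370 peaks (27.0%), where 25.8% of all RBPJ peaks held it. The following 100 bp windows are centred on the core site nearest to the peak centre and show it at a small nucleolar RNA host, a nuclear lncRNA, the telomerase RNA, an antisense RNA of a receptor gene, a microRNA and a lincRNA with several sites. Capitals mark the core site nearest to the centre (GRCm38, read from RefSeq GRCm38.p6).
Snhg6, chr1:9944207-9944306, plus strand: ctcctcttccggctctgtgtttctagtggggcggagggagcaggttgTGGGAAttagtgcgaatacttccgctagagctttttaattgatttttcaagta
Firre, chrX:50635292-50635391, minus strand: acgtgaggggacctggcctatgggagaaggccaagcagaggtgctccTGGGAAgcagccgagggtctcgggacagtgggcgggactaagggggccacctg
Terc, chr3:96414418-96414517, minus strand: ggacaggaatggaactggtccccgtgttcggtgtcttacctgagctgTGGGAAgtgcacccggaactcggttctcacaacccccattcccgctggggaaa
Egfros, chr11:16830695-16830794, minus strand: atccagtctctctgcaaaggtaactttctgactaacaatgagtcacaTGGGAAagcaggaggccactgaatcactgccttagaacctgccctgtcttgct
Mir6352, chr1:77495772-77495871, plus strand: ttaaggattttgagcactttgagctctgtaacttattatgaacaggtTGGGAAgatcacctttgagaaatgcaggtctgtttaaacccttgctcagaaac
Gm14321, chr2:167777578-167777677, minus strand: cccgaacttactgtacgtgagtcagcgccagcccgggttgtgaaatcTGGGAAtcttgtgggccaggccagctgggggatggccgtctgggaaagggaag

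Snhg6 hosts small nucleolar RNAs, and its peak of 308 bp was centred 43 bp upstream of the start with a single core site. Firre is a nuclear lncRNA that takes part in contacts between chromosomes, and its peak of 828 bp was centred 46 bp upstream with 3 core sites. The peak of Terc, the RNA template of telomerase, was centred 343 bp downstream of the start within the gene's exon. At Egfros, which runs opposite to Egfr, a peak of 474 bp held 3 core sites and lay 29 bp upstream of the antisense start inside an intron of the receptor gene. Gm14321 had 4 core sites within 721 bp, and its peak was centred 82 bp downstream of the start in an exon. Mir6352 had 6 sites in 1685 bp, in a coding gene's intron and 19.2 kb from the start of Epha4.

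RBPJ can also bind paired sites that face each other. Head-to-head pairs of TGGGAA or TGAGAA with TTCCCA or TTCTCA on the same strand, separated by 11 to 21 bp, were found 14 times in the 370 peaks. There were 186 pairs in the 4371 other peaks beyond 5 kb and 305 in all 11094 peaks. A gap of 14 bp was the most frequent, with 4 pairs beside 3 with a gap of 11 bp. The same gap of 14 bp was found in 70 of the 186 pairs in the other peaks beyond 5 kb, and in 99 of the 305. The 4 windows with a 14 bp gap are given because each lay in a narrow peak and close to its centre. Capitals mark both motifs.
Gm25839, chr1:61469685-61469750, plus strand: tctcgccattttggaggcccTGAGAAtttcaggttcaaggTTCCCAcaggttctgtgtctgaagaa
Gm13385, chr2:28793366-28793431, plus strand: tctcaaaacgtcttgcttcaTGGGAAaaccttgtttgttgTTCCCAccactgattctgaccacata
Gm9916, chr3:118435196-118435261, plus strand: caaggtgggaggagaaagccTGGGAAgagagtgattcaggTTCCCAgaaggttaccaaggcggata
Gm23543, chr6:65864509-65864574, plus strand: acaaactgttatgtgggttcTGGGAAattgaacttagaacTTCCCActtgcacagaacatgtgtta

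These peaks were 371, 237, 487 and 395 bp wide in the order given, and the middle of the pair lay 88.5, 31.5, 51.5 and 69.5 bp from the peak centre. Gm25839 and Gm23543 are annotated as small nuclear RNA genes, Gm13385 as a processed pseudogene and Gm9916 as a lincRNA, a long intergenic noncoding RNA. The pair at Gm23543 touched repeat-masked sequence and the other 3 did not. Terc held a pair with a gap of 17 bp at 60.5 bp from the centre of its peak, while 5430437J10Rik had one with a gap of 20 bp at 7.5 bp from the centre. The pairs at Ighv2-6 and Gm37187 share most of their sequence and came from neighbouring immunoglobulin segments, so they are not independent of each other. Apart from Terc, the genes named for their pairs were chosen after their values were seen.

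Of the 370 peaks, 16 had a microRNA hairpin start within 1 kb, and the hairpin was the nearest noncoding start for 11 of them. RefSeq (GRCm38.p6) gave mature sequences for 9 of the 16 microRNA genes, and the 14 mature sequences had 14 different seeds. The microRNAs shown are members of families known in many tissues (let-7i, miR-199a) and the one whose peak had the most core sites among microRNA peaks of at most 2 kb (miR-6352), with the seed (bases 2 to 8) in capitals.
mmu-let-7i-5p, chr10:122985698-122985719, minus strand: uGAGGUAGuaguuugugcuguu
mmu-let-7i-3p, chr10:122985642-122985663, minus strand: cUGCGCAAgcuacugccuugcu
mmu-miR-199a-5p, chr9:21496537-21496559, minus strand: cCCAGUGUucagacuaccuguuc
mmu-miR-199a-3p, chr9:21496498-21496519, minus strand: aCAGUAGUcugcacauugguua
mmu-miR-6352, chr1:77496731-77496752, minus strand: uUUGGGAAaaggaccccagcuc

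The peak beside Mirlet7i, of 531 bp, was centred 300 bp downstream of the start of D630033A02Rik, a transcribed pseudogene model nearer than the hairpin, in a CpG-rich exon, and it held 0 core sites. At Mir199a-1 the interval was much wider, at 6304 bp with 10 core sites, and its centre was 284 bp upstream of the hairpin. The letters UUGGGAA that form the seed of miR-6352 hold the RNA form of the core, and the mature sequence lay at the end of the peak. The start of a hairpin is where processing begins and need not be where transcription starts. Mirlet7i and Mir199a-1 were chosen after their values were seen.

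The centres crowded towards the noncoding starts. The median distance was 323.5 bp (quartiles 114.5 and 671.75 bp), with 47 peaks (12.7%) within 50 bp, 84 (22.7%) within 100 bp and 153 (41.4%) within 250 bp. In steps of 250 bp the counts were 153, 87, 55 and 75 up to the limit of 1 kb, and from there to 5 kb each step held 20 to 51 peaks. Distance chose the peaks, so this pattern is given without a test. Upstream centres numbered 190 and downstream centres 180, a division that did not differ from an even one (two-sided exact binomial test, p = 0.640).

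**Figure D1:**
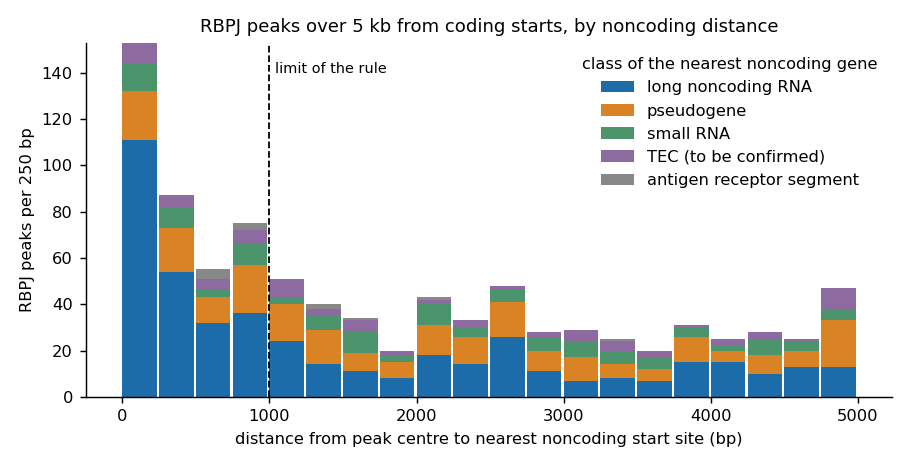
Number of RBPJ peaks more than 5 kb from coding start sites (y axis, peaks per 250 bp) by distance from the peak centre to the nearest noncoding start site (x axis, bp), coloured by the class of the nearest noncoding gene, with the 1 kb limit as a dashed line. The first step holds 153 peaks, mostly at lncRNA genes, and steps beyond the limit hold 20 to 51.

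LncRNA genes supplied most of the nearest starts, with 233 of 370 peaks (63.0%). By annotation class these were 153 lincRNA, 42 antisense and 35 processed transcript genes, with 2 sense intronic genes and 1 other making up the rest. Pseudogenes were nearest to 72 peaks (19.5%), small RNA genes to 33 (8.92%), gene models of the class TEC, which await experimental support, to 25 (6.76%) and antigen receptor segments to 7 (1.89%). LncRNA starts lay closest, at a median of 261 bp, followed by small RNA genes at 343 bp, TEC models at 358 bp, pseudogenes at 453.5 bp and receptor segments at 731 bp. For 36 peaks several noncoding genes started within 1 kb, and 26 lay within 5 kb of a noncoding transcript of a coding gene.

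Read from the genes, lncRNA genes had a peak more often than pseudogenes. Among all 27830 noncoding genes whose starts lay beyond 5 kb from coding starts, 402 had a peak centre within 1 kb, or 1.44%. The share was 3.28% (244 of 7434, interval 2.89 to 3.71%) in lncRNA genes and 0.598% (74 of 12380, 0.470 to 0.750%) in pseudogenes, 2.68 percentage points apart (Fisher's exact test, two-sided, p = 7.95e-46 after Benjamini-Hochberg adjustment over 7 tests). Processed transcript genes had the highest share of the classes with at least 200 genes, at 9.18% (36 of 392, 6.52 to 12.5%). Among the other lncRNA classes of that size, the share was 3.16% in lincRNA genes (164 of 5188) and 2.59% in antisense genes (41 of 1584). In sense intronic genes it was 0.823% (2 of 243), below the share over all noncoding genes. Pseudogenes divided by whether transcription is annotated, at 2.88% of 243 transcribed processed and 3.14% of 223 transcribed unprocessed pseudogenes against 0.494% of 9109 processed and 0.448% of 2453 unprocessed ones. Small nuclear RNA genes had a peak in 1.34% of 1195 cases, microRNA genes in 0.958% of 1670 and small nucleolar RNA genes in 0.722% of 1247. None of the 308 ribosomal RNA genes had one, with an upper bound of 1.19%. Differences among these smaller classes were not tested. Neighbouring genes can share a peak, so genes were not fully independent. Whether reads that match several places were lost at pseudogenes and other gene copies, lowering their shares, was not tested.

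**Figure D2:**
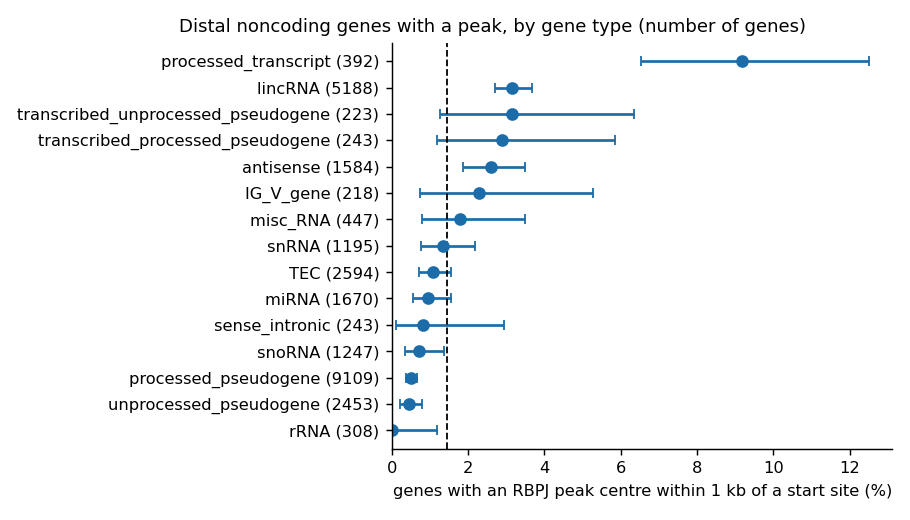
Share of noncoding genes beyond 5 kb from coding starts that had an RBPJ peak centre within 1 kb of a start site (x axis, percent), by annotation class with the number of genes in parentheses (y axis). Points are shares, bars are 95% exact binomial intervals and the dashed line is the share over all noncoding genes, 1.44%. Processed transcripts stand farthest right at 9.18%, and processed pseudogenes lie at 0.494%.

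Among well-known noncoding RNA genes, those of several groups had a peak at the start. Lists of vascular, microRNA host, small nucleolar RNA host, imprinted, developmental and nuclear noncoding RNAs named 107 genes, of which 89 were in the annotation and 52 started beyond 5 kb from coding starts. A peak lay at 17 of these 52, where 402 of all 27830 such genes (1.44%) had one. Among lncRNA genes, the class of most listed genes with a peak, the share was 3.28%, and among processed transcript genes it was 9.18%. The lists were drawn up with earlier results of these data known. They hold widely studied genes, whose level of transcription in these cells was not available here.

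Small nucleolar RNA host genes, whose introns give rise to guide RNAs for the modification of ribosomal RNA, had a peak at 5 of 9 distal starts. Snhg15 had a peak of 571 bp centred 7 bp upstream (chr11:6528482-6529052), Snhg5 one of 457 bp centred 202 bp upstream (chr9:88522903-88523359), and Snhg6 the peak shown above. At Snhg8 the interval of 1955 bp was centred 35 bp downstream of the start of Snora24, a small nucleolar RNA that overlaps the host (chr3:123507054-123509008). The fifth was Epb41l4aos, at 16 bp. The peaks of Snhg15, Snhg5, Snhg6 and Epb41l4aos were CpG-rich, with a GC content of 66.0 to 68.0% in the central 200 bp. Snhg12, Snhg14, Snhg17 and Snhg20 had no peak, and their nearest peak centres lay 110723, 2981851, 49689 and 37295 bp away. Snhg12 lies on chromosome 4 and Snhg14 on chromosome 7, where the whole list was thin, with 86 and 50 peaks beyond 5 kb against 461 on chromosome 1. Of these, 7 of 86 (8.14%) and 3 of 50 were peaks at noncoding starts, near the 7.80% over all chromosomes. Of the listed distal genes, 6 lie on chromosomes 4 and 7, and 0 of them had a peak.

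MicroRNA host genes had a peak in 5 of 10 cases. Mir155hg, the precursor of the inflammatory regulator miR-155, had a peak of 669 bp centred 80 bp downstream of its start (chr16:84702913-84703581) with 1 core site. Dleu2, host of a microRNA cluster known for restraining cell division, had a peak at each of 2 annotated starts. The wider one, of 2369 bp with 2 core sites, was centred 17 bp upstream (chr14:61681158-61683526), and the narrower one, of 1004 bp with 0 sites, lay 110 bp downstream of another start (chr14:61648011-61649014). Mir22hg had 5 core sites in 2288 bp, centred 588 bp downstream (chr11:75461089-75463376). The peak of Mir99ahg lay 220 bp downstream (chr16:77499900-77501308) and that of Mir670hg 92 bp upstream in 232 bp of sequence without a core site (chr2:94178892-94179123). No peak was found at Mir17hg, whose nearest centre was 442427 bp away, nor at the neuronal hosts Mir124a-1hg, Mir124-2hg and Mir9-3hg.

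Nuclear and chromatin-associated RNAs had a peak in 5 of 10 cases, namely Firre, Terc, Ftx, Lncpint and Neat1. Ftx, a gene of the X inactivation centre, had 2 peaks. One of 534 bp was centred 2 bp downstream of a start in CpG-rich sequence (chrX:103616686-103617219), and the other of 908 bp lay 256 bp upstream of another start in sequence with a GC content of 29.0% (chrX:103622303-103623210). Neither held a core site. Lncpint, a lncRNA induced by p53, had a peak of 334 bp centred 177 bp upstream, with a GC content of 79.0% and no core site (chr6:31216377-31216710). Neat1, the scaffold of paraspeckles, shared an interval of 13079 bp with the antisense gene Frmd8os (chr19:5839520-5852598), which held 27 core sites. Xist had no peak, its nearest peak centre lying 133698 bp away. Chromosome X held only 78 peaks beyond 5 kb, and 2 of the 7 listed distal genes on it had a peak. Malat1, a neighbour of Neat1, fell just outside the limit with a centre 1037 bp from its start.

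Vascular noncoding RNAs had a peak in 5 of 20 cases, of which Mir155hg, Mir22hg, Mir99ahg and Neat1 are given above. The fifth was Carmn, a lncRNA of smooth muscle and heart, whose peak of 451 bp was centred 920 bp upstream of its start (chr18:61666232-61666682) and held 2 core sites, with TGGGAA in its central 200 bp. The microRNA genes Mir143 and Mir145a, which regulate the contractile state of smooth muscle and lie near Carmn, had nearest peak centres at 10407 and 9043 bp. Next to Carmn, an interval of 4082 bp with 5 core sites was centred 691 bp upstream of Bvht, a lncRNA known from heart development. Bvht was chosen after its values were seen. Mir21a had its nearest centre at 3048 bp, and Dnm3os, Mir199a-2 and Mir214, which are transcribed together, at 245116, 245307 and 250861 bp. Of 8 distal imprinted genes only Airn, the antisense transcript that silences Igf2r on the paternal chromosome, had a peak, of 2059 bp and centred 10 bp upstream of its start within an intron of Igf2r (chr17:12740272-12742330). Of the others, H19, Kcnq1ot1, Nctc1 and Snhg14 lie on chromosome 7, with its few peaks, and their nearest peak centres were 805340, 1273019, 787398 and 2981851 bp away. Meg3 on chromosome 12 had its nearest centre at 104616 bp. None of the 4 distal developmental genes, Hotair, Halr1, Rmst and Sox2ot, had a peak, and the other 22 of that list have a start within 5 kb of a coding start.

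**Figure D3:**
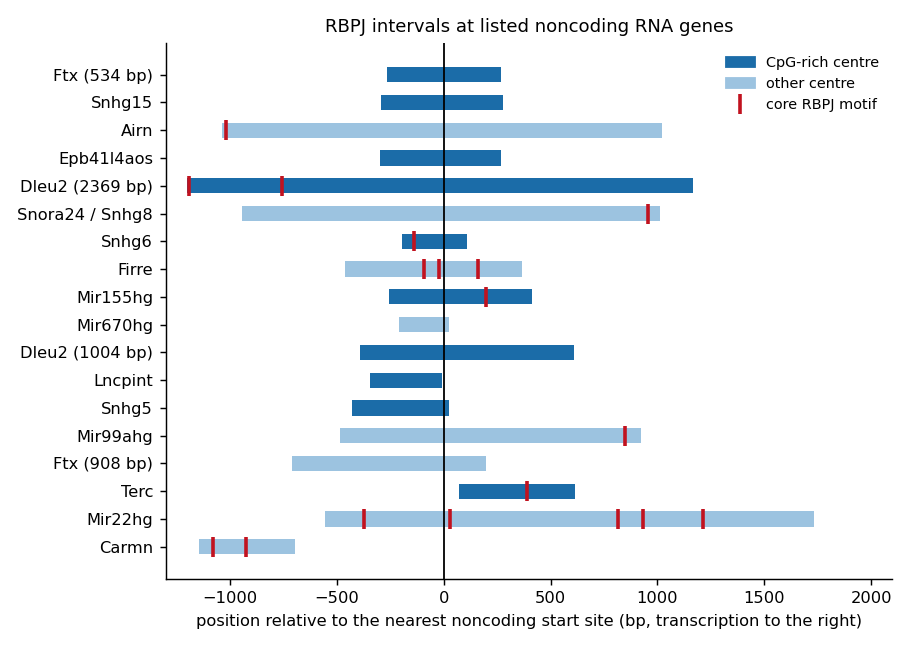
Position of the RBPJ intervals of up to 3 kb at the listed noncoding RNA genes relative to the nearest noncoding start (x axis, bp, transcription to the right), 1 gene per line. Dark bars have a CpG-rich centre, light bars do not, and red ticks are TGGGAA sites on either strand. The bars of Ftx (534 bp), Snhg15, Airn, Epb41l4aos and Dleu2 (2369 bp) are centred within 17 bp of the start, and that of Carmn lies 920 bp upstream.

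Other genes with established symbols lay close to the centre of a peak. Opposite-strand genes included Kcnab3os (88 bp) and Rab10os (125 bp), which had CpG-rich peaks of 377 and 711 bp, and Speer4cos (52 bp), in an interval of 5689 bp of which 45.8% was masked as repeat. Among pseudogenes, Rpl19-ps1, a copy of a ribosomal protein gene, lay 11 bp from the centre of an interval of 1864 bp, and Frg2f4 lay 42 bp and Zfp389 104 bp from theirs. Some noncoding models carry the symbol of a coding gene, as at Zswim6 (39 bp), Trmt61b (22 bp) and Magef1 (55 bp). The small RNA gene Snord49b was 71 bp from the centre of a CpG-rich peak with 0 core sites. The genes 2410006H16Rik and Snord49a also had a start within 1 kb of that centre. Platr14 (116 bp) had 5 core sites in 2731 bp and Tmem250-ps (55 bp) had 0 in 520 bp. Mir8120, 39 bp from the centre of a CpG-rich peak of 674 bp, also had 0.

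The rule fixed a minimum distance to coding starts, and the values beyond it are a description. The median distance to the nearest coding start was 34.7 kb (quartiles 16.7 and 86.8 kb), and 148 peaks (40.0%) were more than 50 kb away. Peak centres fell outside all gene models in 132 cases (35.7%), in an exon of a noncoding gene in 92 (24.9%), in an intron of a noncoding gene in 76 (20.5%) and in an intron of a protein-coding gene in 50 (13.5%). A further 15 (4.05%) were in a noncoding exon within a coding gene, 3 in an exon of a coding gene outside its coding part and 2 in a coding exon. Another of the 370 peaks lay within 100 kb of 45 peaks (12.2%), so that these share a region. Per chromosome, their share of the peaks beyond 5 kb ran from 2.56% on chromosome 19 to 13.0% on chromosome 17, with 0 on Y.

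Peaks at noncoding starts were wider than the other peaks beyond 5 kb. The median was 714.5 bp (quartiles 389.25 and 1674.25 bp, range 138 to 51683 bp), against 488 bp (299 and 1200 bp) in the 4371 other peaks and 829 bp (512 and 1396 bp) in the 5489 peaks within 1 kb of a coding start. At least 500 bp was reached by 246 of 370 (66.5%, interval 61.4 to 71.3%), near the 63.7% of all RBPJ peaks, and by 2138 of the 4371 others (48.9%, 47.4 to 50.4%). The difference of 17.6 points had p = 1.45e-10 (two-sided Fisher's exact test, adjusted over 7 tests). By class, the medians were 669 bp at lncRNA, 718 bp at small RNA, 745 bp at TEC, 1185.5 bp at pseudogene and 2034 bp at the 7 receptor segment starts, without a test. The widest were those at Gm48527 (51683 bp), AC166110.1 (22792 bp), Gm21847 (18798 bp), Frmd8os with Neat1 (13079 bp) and Gm21039 (10889 bp). In these 5 intervals, 37.2, 17.3, 50.9, 10.9 and 26.0% of the bases were masked as repeats, in the same order. Whether reads that match several places contributed to wide intervals was not tested.

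**Figure D4:**
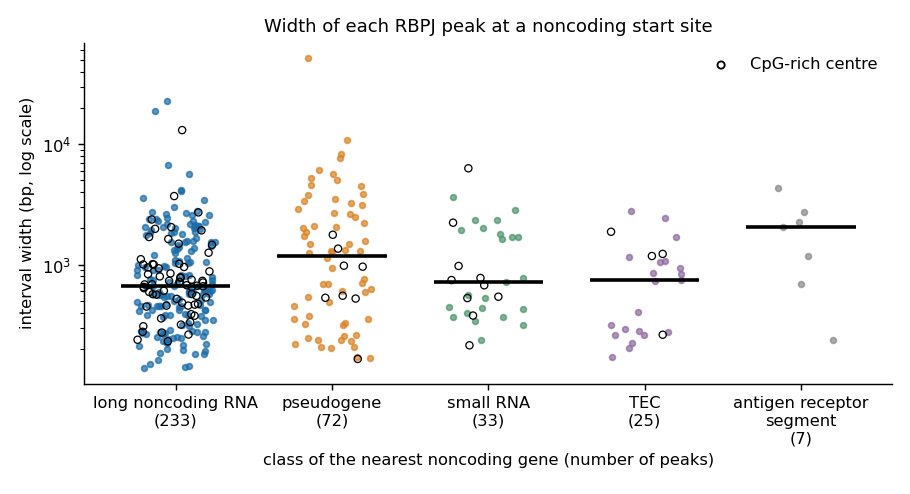
Width of each of the 370 peaks (y axis, bp, log scale) by class of the nearest noncoding gene (x axis, with the number of peaks). Open circles have a CpG-rich centre and black lines are medians, from 669 bp at lncRNA starts to 2034 bp at receptor segments. Horizontal scatter has no meaning.

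The peaks held CpG-rich sequence more often than other peaks beyond 5 kb. A central 200 bp with a GC content of at least 50% and an observed to expected CpG ratio of at least 0.6 was counted as CpG-rich. It was found in 87 of the 370 (23.5%, interval 19.3 to 28.2%), in 182 of 4371 others (4.16%, 3.59 to 4.80%), and in 39.9% of all peaks. The 5489 peaks within 1 kb of a coding start had it in 74.0%, a contrast that was not tested. The share at noncoding starts exceeded that of the others beyond 5 kb by 19.3 points (Fisher's exact test, two-sided, adjusted p = 6.57e-34). CpG-rich peaks were most common at small RNA (10 of 33, 30.3%) and lncRNA genes (65 of 233, 27.9%), with 4 of 25 at TEC models, 8 of 72 at pseudogenes and 0 of 7 at receptor segments. They lay closer to the start, at a median of 127 bp against 419 bp for the other 283, and 57 of the 87 were within 250 bp. These divisions within the group were not tested.

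The same was seen from the start sites of lncRNA genes themselves. Here the 5′ end of each lncRNA gene was used, in place of all its transcript starts as above, so that the counts of genes differ. Of 225 such distal starts with a peak within 1 kb, 74 (32.9%, interval 26.8 to 39.4%) were CpG-rich over 200 bp, against 364 of 7252 starts without one (5.02%, 4.53 to 5.55%). The gap of 27.9 points had an adjusted p of 1.06e-36 (Fisher's exact test, two-sided). TGGGAA was present in the same windows in 56 of 225 starts with a peak (24.9%) and in 1444 of 7252 of those without (19.9%), a difference that was not tested. GC content alone had a median of 52.5% in the central 200 bp of the 370 peaks, 49.0% in the others beyond 5 kb and 66.0% at coding starts.

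**Figure D5:**
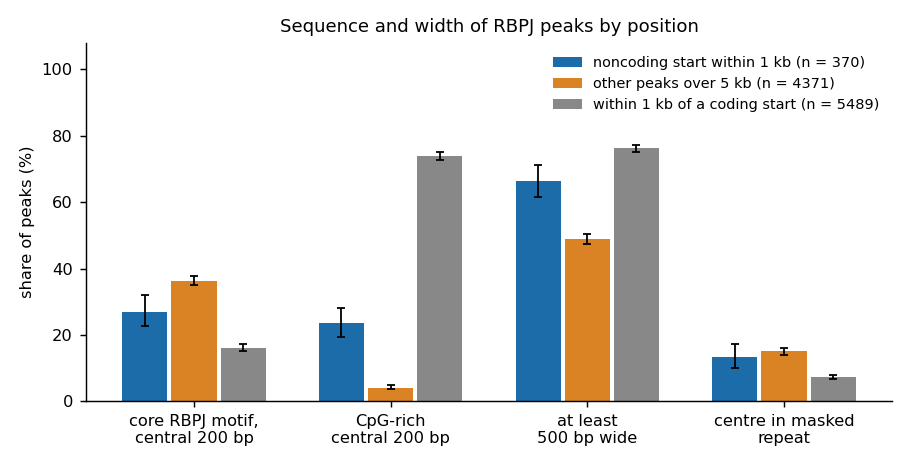
Share of peaks (y axis, percent) with TGGGAA in the central 200 bp, a CpG-rich central 200 bp, a width of at least 500 bp and a centre in repeat-masked sequence (x axis). Bars are the 370 peaks at noncoding starts, the 4371 other peaks beyond 5 kb and the 5489 peaks within 1 kb of a coding start, with 95% exact binomial intervals. For CpG-rich windows the noncoding starts (23.5%) fall between the others (4.16% and 74.0%).

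The core motif was less frequent in the centre of these peaks than in the other peaks beyond 5 kb, and more frequent than in windows 5 kb to either side. It was found in 27.0% (interval 22.6 to 31.9%) of the 370 against 36.4% (1590 of 4371, 34.9 to 37.8%) of the others, a difference of -9.35 points with an adjusted p of 0.000336 in Fisher's exact test. In windows of 200 bp placed 5 kb to either side it was found in 116 of 740 (15.7%, 13.1 to 18.5%), which was 11.4 points lower than at the peaks (Fisher's exact test, adjusted p = 1.76e-05). Each window came from the region of a peak, and the test did not use this matching. At the 5 widest intervals, of 10889 bp or more, the windows lay inside the interval itself. At coding starts 16.2% of peaks held the motif. The first difference was -3.16 points with the longer motif GTGGGAA (Fisher's exact test, adjusted p = 0.108), and over whole peaks it turned to 1.08 points (Fisher's exact test, adjusted p = 0.677). Both differences moved with width. Of the 124 peaks under 500 bp, 58 (46.8%) held TGGGAA, against 48.8% of 2233 others of that width, a difference of -1.99 points (adjusted p = 0.712), and against 16.9% of their flanking windows, a difference of 29.8 points (adjusted p = 3.74e-09, Fisher's exact test for both). Of the 246 peaks of at least 500 bp, 42 (17.1%) held it, against 23.4% of 2138 others, a difference of -6.36 points (Fisher's exact test, adjusted p = 0.0286). Their flanking windows held it in 15.0%, and that difference of 2.03 points did not pass Fisher's exact test (adjusted p = 0.520). In a wide merged interval the centre need not be the place of binding. Peaks under 500 bp were set apart after seeing the data.

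Over whole intervals the motif was found in 266 of the 370 (71.9%), against 70.8% of the others beyond 5 kb, and its density was 1.32 sites per kb against 1.50. The 721 sites were spread unevenly, with 104 peaks holding 0, 121 holding 1, 65 holding 2, 23 holding 3 and 57 holding 4 or more. The longer form GTGGGAA occurred somewhere in 130 peaks (35.1%). Among the 297 peaks of at most 2 kb, 194 had a site, and the nearest lay at a median of 113.5 bp from the centre, within 100 bp in 91 (46.9%). The most sites in such peaks were 8 at 5031415H12Rik, in an intron of a coding gene and 91.7 kb from the start of Tgif1, and 6 at both Mir6352 and Gm49767. Lncppara, Gm37027, Gm47416 and AC141471.3 had 5 each, and 10 peaks had 4 each, among which Gm37368 and Gm14321 were named because they lay nearer to their starts than most. Gm14321 lay 88.7 kb from the start of Cebpb. Core sites in the central 200 bp read in the direction of the noncoding gene in 64 of 116 cases (55.2%).

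CpG content and the motif divided the peaks further. TGGGAA was present in 15 of 87 CpG-rich centres (17.2%) and in 85 of the 283 others (30.0%). By class, it was found in 13 of 33 peaks at small RNA genes (39.4%), 62 of 233 at lncRNA genes (26.6%), 19 of 72 at pseudogenes (26.4%), 5 of 25 at TEC models and 1 of 7 at receptor segments. Within 250 bp of the start 29.4% held it, and farther out 25.3%. These values are a description without a test. Centres in repeat-masked sequence made up 50 of 370 (13.5%, interval 10.2 to 17.4%) and 659 of 4371 others (15.1%, 14.0 to 16.2%), and the difference of -1.56 points did not pass Fisher's exact test (adjusted p = 0.448). By class the share was highest at pseudogenes (20.8%) and lowest at lncRNA genes (10.7%).

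Small structured RNAs and receptor segments formed the remaining groups. Of the 33 peaks nearest to a small RNA, 13 were at small nuclear RNA genes, 11 at microRNAs, 5 at miscellaneous RNAs and 4 at small nucleolar RNAs. Rnu1b6, a copy of the U1 RNA of the spliceosome, had an interval of 1684 bp centred 377 bp away, and Rny1, one of the Y RNAs, had 555 bp centred 482 bp away with 2 core sites, both in masked repeats. Rnu1b6 lay within 100 kb of Terc, as did Gm24830, another small nuclear RNA gene. Of the 7 peaks at receptor segments 5 were at variable segments of the immunoglobulin heavy chain on chromosome 12 and 2 at T cell receptor segments on chromosome 14. Rnu1b6, Rny1 and Gm24830 were chosen after their values were seen. Copies of small RNA genes and of gene segments resemble each other, so the position of reads among them is uncertain.

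At the limits of the rule, the peaks just inside 1 kb were those at Gm48623 (987 bp), Gm30849 (995 bp) and Gm33929 (1000 bp), and those just outside were at Rnu6 (1012 bp), Gm20508 (1016 bp) and Gm20125 (1022 bp). Just beyond 5 kb from a coding start lay the peaks at Zfp389 (5011 bp from Gm11273), Gm49097 (5126 bp from Baalc) and 1700047M11Rik (5274 bp from Degs1). Just within it were those at Gm32352 (4614 bp from Wfdc1), Chrna1os (4875 bp from Chrna1) and 1700065J11Rik (4906 bp from Fam180a).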

How the data were processed

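The authors deposited RBPJ peaks on GRCm38 as positions in bp, with no score. Per the methods of the study, reads were aligned with bowtie under a limit on reads that match several places. Peaks were called with MACS2 and PeakRanger, and calls within 2 kb were merged. Those supported by 3 or more overlapping calls were kept and blacklisted regions were removed. Merging widens intervals and moves centres.

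Starts were read as counted from 1. Chromosome names matched GRCm38.p6, and 0 peaks ran past a chromosome end. GENCODE M21 gave 54327 coding start sites (protein-coding transcripts of protein-coding genes) and 39185 start sites of 33475 other genes. Coding genes were left out of the noncoding set even where a transcript is noncoding. Replicate files were compared as sorted lists of chromosome, start and end. TGGGAA was searched in the central 200 bp. Shares were compared by two-sided Fisher's exact tests, Benjamini-Hochberg adjusted over 7 tests, with exact (Clopper-Pearson) 95% intervals. Scripts were tested on simulated data. Tools were matplotlib 3.10.9, statsmodels 0.14.6, scipy 1.17.1, pandas 2.3.3, numpy 2.4.6 and Python 3.11.15.

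Members and lists were chosen with earlier results of these data known. Genes named were those of the lists, the 25 nearest with an established symbol, the 5 widest, the 10 with most sites among peaks of at most 2 kb (ties by distance to the start) and the 3 on each side of both limits. Any other gene was picked after seeing its values. A result that the rule would name is not reported here. Alternatives changed the distance limits, start sites, motif, window, width, repeats and chromosomes.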

Additional observations from a re-analysis of the deposited data

How the results depend on the processing

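The number of peaks at noncoding starts was 240 with a limit of 500 bp, 238 with lncRNA genes only, 246 among peaks of at least 500 bp and 124 among those under 500 bp, and ran from 124 to 515 over 15 alternatives. Leaving out replicate 1 or replicate 2 gave 370 in both cases, since the files are the same. The difference in TGGGAA between these peaks and the others beyond 5 kb was -3.16 points with the motif GTGGGAA (10.3 against 13.4%, Fisher's exact test, adjusted p = 0.108), -1.99 among peaks under 500 bp and 1.08 over whole peaks (71.9 against 70.8%, adjusted p = 0.677), where the direction reversed. Over its 20 alternatives it ran from -12.2 to 1.08. Against flanking windows the difference was 2.03 points among peaks of at least 500 bp (Fisher's exact test, adjusted p = 0.520) and ran from 2.03 to 29.8. The causes were not tested, beyond the larger windows searched in whole peaks. With CpG-rich windows left out, the difference from the others was -6.70 points (30.0 against 36.7%, Fisher's exact test, adjusted p = 0.0295). Counting every transcript start of coding genes as coding left 344 peaks. The results on width, CpG-rich sequence, repeats and lncRNA genes had the same direction and stayed on one side of 0.05 under every alternative run. The alternatives with peaks under 500 bp, CpG-rich windows left out, another reading of coding starts, receptor segments left out and peaks with a neighbour within 100 kb left out were chosen after seeing the data. All adjusted p-values are from two-sided Fisher's exact tests. Depth is unknown, since the list has no counts, and sites just under the calling threshold are not in it. No paired analysis was possible because a single peak list stands for both replicates and groups were not compared.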

Other observations

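For 6 of the 370 peaks the nearest coding start belonged to a gene of the Notch pathway, from a list of 41 genes. This was 1.62% (95% exact binomial interval 0.597 to 3.50%), beside 25 of the 4371 other peaks beyond 5 kb (0.572%, 0.370 to 0.843%), and the difference was not tested. Gm26569 and 4632428C04Rik both lay nearest to Hes1, a transcriptional repressor and classical Notch target, at 119057 and 56408 bp. Gm26569 had a peak of 711 bp centred 233 bp downstream of its start, and 4632428C04Rik had one of 687 bp centred 265 bp downstream. Each held 1 TGGGAA site, which was part of GTGGGAA. The peak at Pdxk-ps, of 593 bp, had 2 sites and lay 46002 bp from the start of Notch3, the receptor of mural cells. Gm13387, in the region of the Notch feedback inhibitor Nrarp, had a peak of 1834 bp with 2 sites at 35985 bp from the coding start. Gm10728 and Gm30074 were nearest to Maml3, a Mastermind coactivator, at 112088 and 75305 bp, with 0 and 2 sites. Whether any of these peaks acts on the gene nearest to it was not tested.

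At Trp53cor1, a lncRNA induced by p53, a peak of 521 bp with 2 sites was centred 213 bp downstream of the start and 12013 bp from the start of Cdkn1a, an inhibitor of the cell cycle. Ptgs2os2, near the gene of the prostaglandin enzyme Ptgs2, had a peak of 1355 bp with 3 sites centred 605 bp upstream. These genes were chosen after their values were seen.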
